A study of Mus musculus with 4 samples.

Results

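Club and secretory airway cells made up 70 of the 9391 filtered cells of this mouse lung dataset (0.745%, exact 95% binomial interval 0.582% to 0.941%), out of 11118 barcodes in all. They were chosen by measured values. A member had at least 500 genes, at most 10% of its unique molecular identifiers (UMIs, each 1 captured transcript) from mitochondrial genes, at least 20% of its UMIs from Scgb1a1, at least 20 Cyp2f2 UMIs, at most 2 UMIs of the ciliated-cell gene Tmem212 and 0 UMIs of the leukocyte gene Ptprc. Levels of these 4 genes in the members are therefore a description of the choice, and the same choice can favour any gene that moves with them.

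The cells were sorted from lungs as negative for CD45, which marks leukocytes, and CD31, which marks endothelium, and were counted by droplet 3′ RNA sequencing. All mice shared 1 genotype and treatment: tamoxifen-dosed Gli1CreERT2/WT;Rosa26mTmG/WT animals of about 8 weeks, with the strain given as B6D2F1/J in one label and C57BL/6J in another. In them a tamoxifen-activated Cre is made where Gli1, a hedgehog target gene, is active, and it turns a reporter from membrane tdTomato to membrane EGFP. The 4 samples carry identical labels and their cells lie in 1 matrix with no map from cell to sample, so the cells count as 1 sample. No test was possible, cells are not replicates, and all intervals below cover counting error only.

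Club cells are the non-ciliated secretory cells of the conducting airways. They release secretoglobins and antimicrobial proteins onto the airway surface, metabolise inhaled chemicals with cytochrome P450 and conjugating enzymes, and act as progenitors that restore themselves and ciliated cells after injury. Goblet cells, a related secretory type, release gel-forming mucins.

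The 70 members held 2402148 UMIs, of which Scgb1a1 took 1252398 (52.1%). Levels are therefore given as CPM, counts scaled to a total of 1000000 UMIs, with Scgb1a1 left out of every cell's total, in members and comparison cells alike. With Scgb1a1 kept in the totals (plain CPM), every other gene's level in the members would be 0.479 times as high (a log2 shift of −1.06). Each transcript is counted once near its 3′ end, so no length scaling applies. Members were deep: the median was 32221 UMIs (range 6194 to 77372), 14359.5 of them outside Scgb1a1, and 3157 genes. The comparison sets were 1972 alveolar type 2 cells (Sftpc at 5% of UMIs or more) with a median of 10047.5 UMIs, 256 ciliated cells (5 Tmem212 UMIs or more) with 11457.5, and 5627 fibroblasts (5 Col1a2 UMIs or more) with 8108. They were also limited in other cells' genes: Scgb1a1 was under 5% of UMIs in the alveolar type 2 and fibroblast sets and under 20% in the ciliated set, Sftpc was under 5% in the ciliated and fibroblast sets, and alveolar type 2 cells had at most 5 Cyp2f2 UMIs. Alveolar type 2 cells and fibroblasts also had at most 2 Tmem212 UMIs. The levels of those genes in those sets are thus in part fixed by the choice. A doublet caller marked 2 members, 231 alveolar type 2 cells, 35 ciliated cells and 153 fibroblasts.

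The limits of the choice fell in thinly filled ranges. The lowest member had 23.8% of its UMIs from Scgb1a1 and the third lowest 25.1%, while the nearest cells that missed on that share alone had 19.1% and 18.8%. The lowest members had 33, 36 and 36 Cyp2f2 UMIs, and 3 cells that missed on Cyp2f2 alone had 10, 8 and 1. A further 16 cells met every limit except Tmem212, with 3 to 52 UMIs of it and 3 to 16 UMIs of Foxj1, the transcription factor of motile cilia. Those 16 cells had a median of 47120 UMIs, and 5 of them were called doublets. No cell missed on Ptprc alone.

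The label was checked against marker genes. All 70 members had Scgb3a2 and Hp UMIs besides the chosen Scgb1a1 and Cyp2f2. Hp also had a UMI in 92.4% of alveolar type 2 and 95.7% of ciliated cells, so its presence alone separates these cells little. Scgb3a2 had one in 5.07% and 50.8% of them. The members held 75.7% of all Scgb1a1 UMIs of the whole matrix, which follows in part from the choice. Foxj1 had 1 UMI over all members, but all 10 ciliated markers had UMIs in the members, with a summed level of 895 CPM (137 to 3324 CPM over the cells), against 280.4 CPM in alveolar type 2 cells, 16292 CPM in ciliated cells and 217 CPM in fibroblasts. Most of the sum in the members came from 1 marker, Sec14l3, which had 904 UMIs and was found in all 70 members. Its highest member had 3324 CPM, and Tmem212 had a UMI in 3 members. The part of ciliated-cell RNA in the results was not tested. Of 6 basal-cell markers, Krt5, Krt14, Trp63, Ngfr and Dapl1 were at 0, of 6 tuft-cell markers 5 were at 0, of 5 ionocyte markers 3 were at 0, and all 4 erythroid markers were at 0. A count of 0 over the members allows a level of up to 2.61 CPM.

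High levels of alveolar type 2 or fibroblast genes were found in 14 members, called mixed members below as a label only. Results that rest on them are given with and without these cells. In 8 members Sftpc, the surfactant protein gene that defines alveolar type 2 cells, stood at 30771 to 178875 CPM, while the next member had 3616 CPM. All 8 also had UMIs of Lamp3, Slc34a2, Napsa and Lpcat1, further alveolar type 2 genes. In 7 members the summed level of 10 fibroblast markers was 17401 to 51013 CPM, with the next member at 5732 CPM and the fibroblast set at 71310 CPM. Of these, 1 cell belonged to both groups, and 56 members to neither. The 8 and the 7 were deeper than the rest, with medians of 54770.5 and 54973 UMIs, against 30096.5 in the 56. Whether such cells are doublets, or make these transcripts themselves, was not tested. The doublet caller marked 2 of the 14. All 56 members that were not mixed still had a Sftpc UMI.

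Of the members, 22 carried a block of secreted host-defence and mucous genes that was at 0 or at a lower summed level in the other 48. Not every gene of the block was found in each of the 22. Some, such as Bpifb1, Ltf and Pigr, were also found in part of the 48. Promoters of 3 genes of that block and of Sftpb, which ran the other way, are shown because these genes differed between the 2 groups and are in the promoter table used. They are RefSeq sequences on GRCm38.p6, from 250 bases before to 50 after the annotated start, written on the gene's strand from 5′ to 3′. The windows are chr11:49663345-49663644 (plus strand) for Scgb3a1, chr2:154142630-154142929 (plus strand) for Bpifa1, chr6:78468825-78469124 (minus strand) for Reg3g and chr6:72304360-72304659 (plus strand) for Sftpb. Capitals mark matches, on either strand, to CTCAAG (a core recognised by NKX2-1, a lung epithelial transcription factor), TGTTTNC (a forkhead core), TATAAA (a box found near many transcription starts) and TTGCNNAA (a C/EBP core).
Scgb3a1: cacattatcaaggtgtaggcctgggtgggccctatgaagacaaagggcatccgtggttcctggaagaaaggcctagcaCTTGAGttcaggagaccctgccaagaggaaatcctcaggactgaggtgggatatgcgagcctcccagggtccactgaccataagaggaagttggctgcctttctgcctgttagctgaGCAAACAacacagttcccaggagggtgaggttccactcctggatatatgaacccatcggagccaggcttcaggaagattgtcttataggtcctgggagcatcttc
Bpifa1: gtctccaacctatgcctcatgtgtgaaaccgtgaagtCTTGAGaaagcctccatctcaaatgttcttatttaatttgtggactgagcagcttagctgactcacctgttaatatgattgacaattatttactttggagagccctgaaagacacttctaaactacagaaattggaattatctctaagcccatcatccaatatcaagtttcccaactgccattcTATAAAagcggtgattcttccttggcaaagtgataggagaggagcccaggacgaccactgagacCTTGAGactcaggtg
Reg3g: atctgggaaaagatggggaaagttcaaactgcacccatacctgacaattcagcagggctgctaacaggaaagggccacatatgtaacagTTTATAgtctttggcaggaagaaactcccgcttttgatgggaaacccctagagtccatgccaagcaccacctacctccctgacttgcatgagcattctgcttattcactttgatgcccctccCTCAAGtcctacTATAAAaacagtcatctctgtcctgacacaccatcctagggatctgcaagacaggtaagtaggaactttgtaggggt
Sftpb: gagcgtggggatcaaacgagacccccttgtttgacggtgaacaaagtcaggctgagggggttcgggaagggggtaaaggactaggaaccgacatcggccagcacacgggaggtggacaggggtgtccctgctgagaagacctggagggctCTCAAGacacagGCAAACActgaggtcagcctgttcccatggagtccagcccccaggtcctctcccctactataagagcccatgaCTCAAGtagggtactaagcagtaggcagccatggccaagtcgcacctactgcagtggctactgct

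Scgb3a1 held CTCAAG at 172 bases before the start and the forkhead core at 55 before, both on the reverse strand. Bpifa1 held CTCAAG on the reverse strand at 213 before and 35 after the start and TATAAA at 29 before. Reg3g held CTCAAG at 39 before the start, TATAAA at 27 before and on the reverse strand at 161 before. Sftpb held CTCAAG at 100 and 15 before the start and a reverse forkhead core at 88 before. TTGCNNAA was in none of the 4 windows. Among 32851 promoter windows of the same length, 15.9% held CTCAAG, 20.5% the forkhead core, 13.6% TATAAA and 10.8% TTGCNNAA, so single matches of this kind are common. All 4 windows held CTCAAG, while the windows of Cyp2f2 and Cbr2, searched in the same way, held none. Sftpb, with a match, and Cbr2, without one, were both lower in the members with the block. Whether the match bears on these levels was not tested.

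Secretoglobins, small secreted proteins of the airway lining, were the most abundant products. Scgb1a1 (mm10 chr19:9083636-9087958, minus strand) took 23.8% to 75.9% of a member's UMIs, with a median of 55.4%, against 0.0367% of all UMIs of the alveolar type 2 set, 0.392% of the ciliated set and 0.0217% of the fibroblasts. Scgb3a2 (chr18:43764289-43767399, plus strand) ranged from 46.1 to 201573 CPM over the members with a median of 34959.8 CPM, and its summed level was 54535 CPM in members, against 6.12 CPM in alveolar type 2 cells and 99.0 CPM in ciliated cells. Its 7 lowest members, at 46.1 to 2765 CPM, lay within the range of the alveolar type 2 cells, whose highest cell had 2855 CPM. Scgb3a1 (chr11:49663610-49665118, plus strand) stood at 48563 CPM in members, against 3.23 CPM in alveolar type 2 cells and 107 CPM in ciliated cells, yet 40 members had no UMI of it. Scgb1c1 was found in 51 members, at 277 CPM over the members, against 62.2 CPM in alveolar type 2 cells and 14.8 CPM in ciliated cells.

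**Figure D1:**
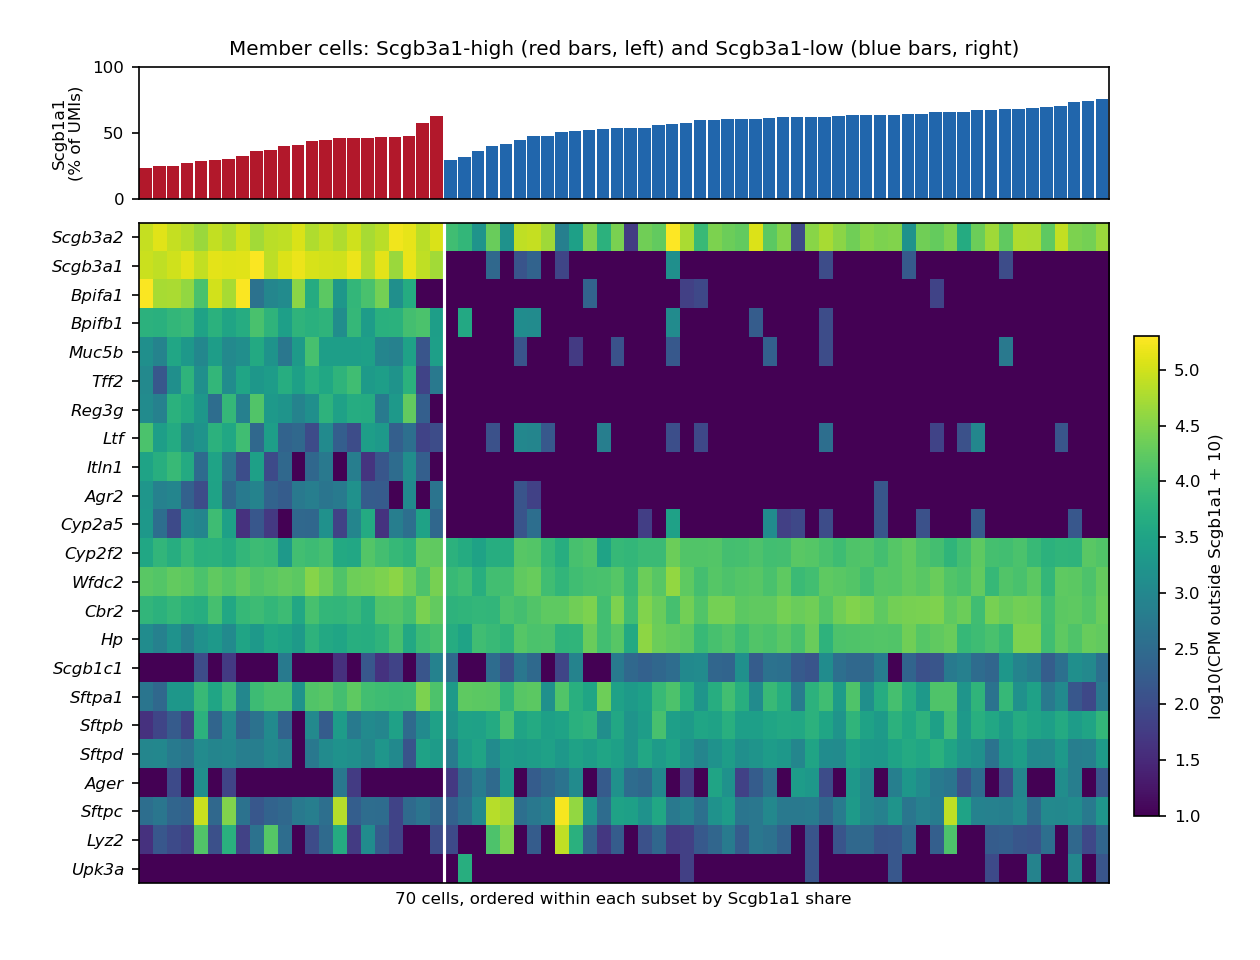
Upper bars give the Scgb1a1 share of each of the 70 members in percent of UMIs. The heat map gives the level of each named gene (rows) in each member (columns, Scgb3a1-high members on the left), as log10 of CPM outside Scgb1a1 plus 10. The 22 Scgb3a1-high members also hold Tff2 in 22 of 22 cells and Reg3g in 21, while neither gene has a UMI in the other 48.

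The 22 Scgb3a1-high members had 44960 to 188187 CPM of Scgb3a1, and the 48 Scgb3a1-low members at most 1359 CPM, with no member between. The limit of 10000 CPM was set in this gap after the values were seen, so Scgb3a1 itself is a description, and genes that move with it are described with no test. Summed Scgb3a1 was 105906 CPM in the high members and 77.0 CPM in the low members. A gene is called higher below at a ratio of 2 or more, and lower at 0.5 or less, with at least 30 UMIs over both groups. Of 4152 genes measured in this way, 178 (4.29%) were higher and 437 (10.5%) lower in the high members, and the median ratio was 0.827. The split depends on the scale: on plain CPM 486 (11.7%) were higher and 138 (3.32%) lower, and with Scgb1a1, Scgb3a1, Scgb3a2 and Bpifa1 all left out they were 302 and 220. The median log2 ratio of all genes was −0.27 on the main scale, 0.28 on plain CPM and 0.06 with those 4 genes left out. The high members gave less of their RNA to Scgb1a1, a median of 40.7% (23.8% to 63.3%), against 61.9% (29.7% to 75.9%) in the low members. They were also deeper, with a median of 38911.5 UMIs and 3969.5 genes, against 29472.5 UMIs and 2975.5 genes. Outside Scgb1a1, the part on which levels are computed, the medians were further apart, at 22305 and 11591 UMIs. Counts of high and low members with a UMI were not matched for this depth. The part of depth in the differences was not tested.

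Secreted defence proteins led the block. Bpifa1, an airway protein that binds bacterial surfaces and surfactant lipids, had 44115 CPM in the high members, where 20 of 22 cells had a UMI, against 6.42 CPM in the low members, where 4 of 48 had one. Over the high cells it had a lowest value of 0, a median of 11765 and a highest of 190323 CPM, and over the low cells it was at 0 in the median cell and 228 CPM in the highest. The high members thus ranged from none to the most abundant transcript outside Scgb1a1, and 26.5% of all Bpifa1 UMIs came from 1 cell. Bpifb1, of the same family, had 5435 CPM in high members (22 of 22 cells) and 207 CPM in low members (6 of 48). Its high cells lay between 1293 and 12039.7 CPM with a median of 5594 CPM, and its low cells between 0 and 3920 CPM with a median of 0, so the groups overlapped in range. Reg3g, a C-type lectin that kills Gram-positive bacteria in mouse gut, had 3520.0 CPM in high members and no UMI in low members, at least 731-fold higher against a floor of 3 UMIs over the group. Its high cells ran from 0 to 18636 CPM with a median of 1968 CPM. Ltf, lactoferrin, an iron-binding antimicrobial protein, had 2929 CPM in high members (22 cells) and 99.5 CPM in low members (12 cells). Pigr, which carries polymeric antibody across epithelium, had 590.4 CPM in high members (22 cells) and 103 CPM in low members (28 cells). Of 18 measured antimicrobial and innate defence genes, 8 were higher and 3 lower in the high members.

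Mucous genes followed the same cells. Tff2, a trefoil peptide of mucus, had a UMI in 22 of 22 high members, with a lowest cell at 64.4 CPM, and in 0 of 48 low members (3430.4 CPM against no UMI, at least 712-fold higher). The median high cell had 2485 CPM and the highest 9785 CPM, and the groups did not overlap. Muc5b, the gel-forming mucin of small and large airways, had 2005 CPM in high members (22 cells) and 24.1 CPM in low members (7 cells), a ratio of 83.3 (50.2 to 149). Its high cells ran from 129 to 11199.9 CPM with a median of 2097 CPM, and its low cells from 0 to 542 CPM. Itln1, a carbohydrate-binding lectin, was in 19 high members at 1217 CPM and in no low member, at least 253-fold higher. Agr2, a disulfide isomerase that mucin folding needs, had 651 CPM in high members and 4.82 CPM in low members. Clca1, which processes mucin networks, had 368 CPM in high members and none in low members, but only 9 cells had it and 1 cell held 49.0% of its UMIs. Of 11 measured mucin and goblet genes, 8 were higher and none lower in the high members, with a median ratio of 56.8. The 6 goblet markers summed to 3673 CPM in high members and 35.3 CPM in low members.

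Among the enzymes, Cyp2a5, a P450 of nicotine and coumarin metabolism whose reads may be shared with Cyp2a4, had 1530 CPM in high members and 128 CPM in low members. Gsto1, a glutathione transferase, had 1686 CPM in high members and 299 CPM in low members, and Aldh3a1, an aldehyde dehydrogenase, had 264 CPM in high members and 36.9 CPM in low members. Cbr2, a lung carbonyl reductase, had 8400.4 CPM in high members and 17732 CPM in low members (ratio 0.47). Prdx6, a peroxiredoxin that also acts on surfactant phospholipid, had 1589 CPM in high members and 3851 CPM in low members (0.41). On plain CPM these 2 ratios were 0.70 and 0.61. Among 12 P450 and phase I genes 4 were higher and 3 lower, and on plain CPM 5 and 0. Among 29 conjugation and redox genes 5 were higher and 7 lower, and on plain CPM 7 and 1, so the balance of both lists depends on the scale. Cyp2f2, which was part of the choice, had a ratio of 0.76, and 1.12 on plain CPM.

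Genes higher in the other 48 members included Hp, haptoglobin, which binds free haemoglobin. Its high cells ran from 735 to 11392 CPM with a median of 3275 CPM, and its low cells from 3103 to 37590.4 CPM with a median of 13007 CPM, overlapping in part. Summed Hp was 3609 CPM in high members and 13713 CPM in low members, a ratio of 0.26 on the main scale and 0.39 on plain CPM. Sftpb, a surfactant protein, had 1016 CPM in high members and 3865 CPM in low members. Its high cells ran from 0 to 5920 CPM with a median of 502 CPM, and its low cells from 1351 to 11731 CPM with a median of 3315 CPM. Scgb1c1 had 60.7 CPM in high members, where 9 cells had a UMI, and 461 CPM in low members, where 42 had one. Hes1, a target gene of Notch signalling, had 201 CPM in high members and 507 CPM in low members (ratio 0.40). Nrarp, another Notch target, had 19.0 CPM in high members and 62.6 CPM in low members (0.30). Kdr, the VEGF receptor gene better known from endothelium, had no UMI in high members and 114 CPM in low members, where 32 of 48 cells had it. Kdr is itself 1 of 8 endothelial markers, of which Cdh5, Cldn5 and Emcn were at 0 and 5 had UMIs. The 8 markers summed to 15.2 CPM in high members and 127 CPM in low members, and Kdr made up 114 of those 127 CPM. Ptgs2, Errfi1, Gstk1, Npw, Clic3, Scnn1b, Gclc and Areg were also among the 20 lowest of all genes, and Slc15a2, Sult1d1, Adh7, Calml3, Msln and Fxyd3 among the 20 highest.

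Ager, best known from alveolar type 1 cells, had 98.7 CPM in high members and 518 CPM in low members, a ratio of 0.19 that was 0.01 without the 14 mixed members. Without them the counts over all genes were 108 higher and 425 lower of 2779. Some differences rested on the mixed cells: Acta2 and Tagln, smooth muscle genes, were higher in the high members with all cells, but 1 cell held 89.9% and 79.2% of their UMIs and the ratios without mixed members were 0.09 and 0.92. Timp1 and Eln, at 0.5-fold or less with all cells, had ratios of 1.09 and 2.18 without them. Of the other list and marker genes called, Lyz1 (ratio 6.18 with all cells, 0.55 without the mixed), Myh11 (4.28, 0.38), Fabp5 (2.40, 0.47), H2-Eb1 (0.39, 4.91) and Lum (0.03, 1.64) also turned. In the 56 others Scgb3a1 was 1474-fold, Bpifa1 7875-fold and Muc5b 73.5-fold higher in the high members, and Tff2 and Reg3g at least 593-fold and 477-fold.

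**Figure D2:**
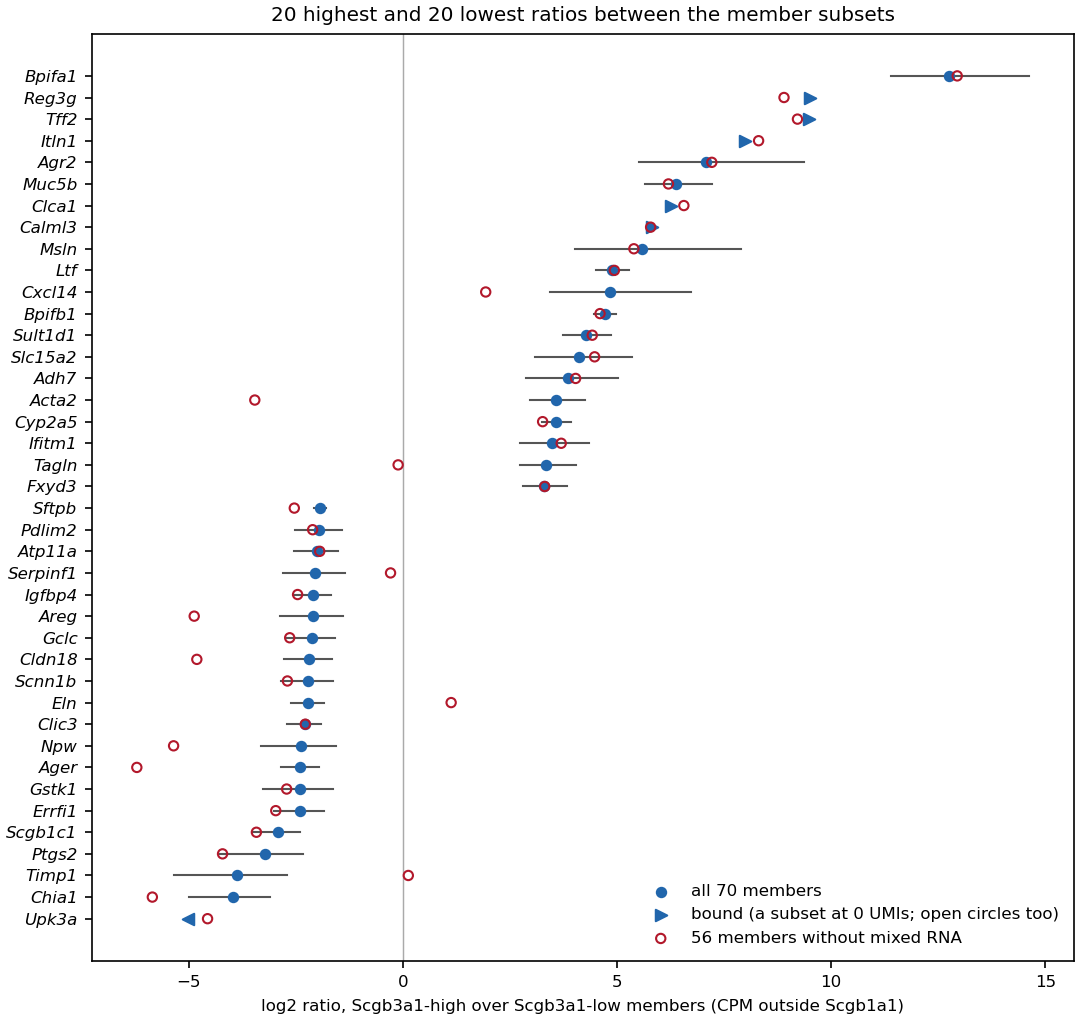
The 20 highest and 20 lowest ratios of CPM outside Scgb1a1, Scgb3a1-high over Scgb3a1-low members, as log2, with 95% counting intervals as lines, all 70 members as filled points, bounds as triangles and the 56 members that were not mixed as open circles. The circles of Acta2, Tagln, Timp1 and Eln fall on the other side of the zero line from their filled points, and those of the other 36 genes stay on the same side.

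**Figure D3:**
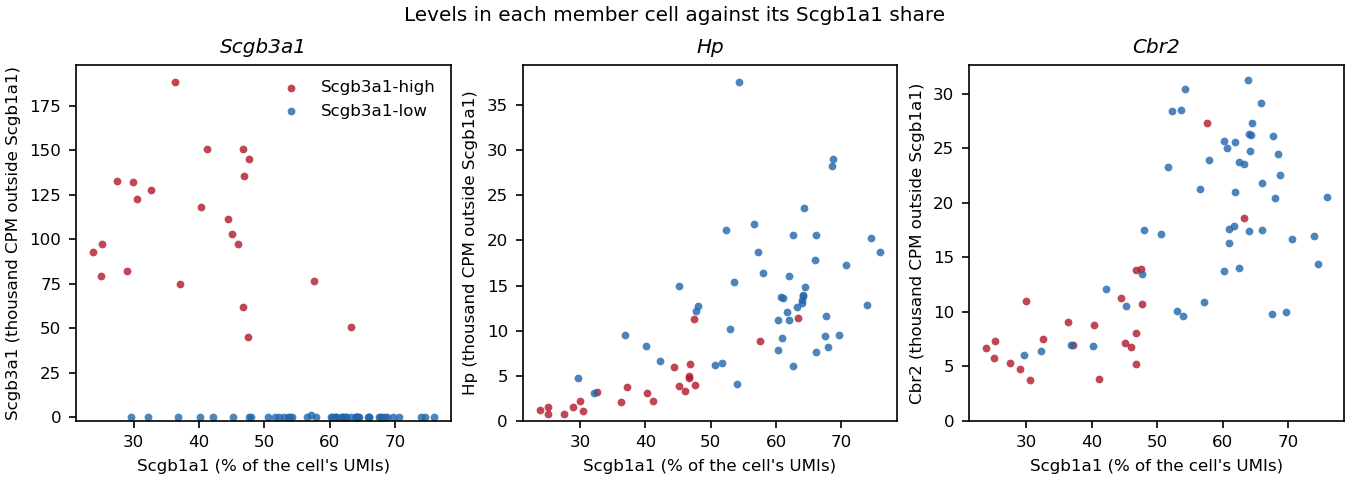
Share of each member's UMIs taken by Scgb1a1 (x axis, percent) against its level of Scgb3a1, Hp or Cbr2 (y axis, CPM outside Scgb1a1 in steps of 1000), 1 point per member, with Scgb3a1-high members in red and Scgb3a1-low members in blue. High members sit at lower Scgb1a1 shares, with 2 of 22 at 50% or more, against 40 of 48 low members.

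Across the 70 cells, Spearman's rho with the Scgb1a1 share was −0.64 for Scgb3a1, −0.66 for Bpifa1 and −0.66 for Reg3g. It was 0.73 for Hp, 0.69 for Cbr2, 0.64 for Prdx6, 0.52 for Sftpb and 0.63 for Scgb1c1. These describe cells of 1 pooled matrix, and shares within a cell constrain one another. By the excess of per-cell counts over Poisson spread, the most variable list genes were Bpifa1, Sftpc, Scgb3a1, Scgb3a2, Lyz2, Retnla, Hp and Reg3g. Wfdc2, an antiprotease of the airway surface, varied far less, with a lowest member of 5067, a median of 14972 and a highest of 40043 CPM. Outside the genes of the choice, the most abundant transcripts over the members were Scgb3a2, Scgb3a1, Bpifa1, Wfdc2, the nuclear RNA Malat1, Cbr2, Sftpc, mt-Atp6, mt-Co1, Hp, mt-Co2 and Tmsb4x. Of 14567 Sftpc UMIs, 13913 came from the 8 Sftpc-high members and 654 from the other 62.

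Of the surfactant proteins, Sftpa1, Sftpb and Sftpd were found at high levels in members whose summed Sftpc was under that of the fibroblasts. In the 62 members without high Sftpc, Sftpc stood at 693 CPM, against 965 CPM in fibroblasts, a cell type that should lack it, a ratio of 0.718. The median cell had 549 CPM in the 62 members and 441 CPM in fibroblasts, whose highest cell had 48851.5 CPM. Without the mixed members, Sftpc summed to 312 CPM in Scgb3a1-high and 970 CPM in Scgb3a1-low members. How much of this Sftpc was free RNA of the droplets was not tested. Sftpa1, Sftpb and Sftpd, by contrast, stood at 7593, 2155 and 1684 CPM in the 62 members, which was 78.0, 33.1 and 98.8 times the fibroblast level. Cxcl15, a lung chemokine, stood at 1412 CPM, 34.8 times the fibroblast level. Lamp3 and Lpcat1 stood at 0.702 and 0.802 times, and Slc34a2 at 1.80 times, the fibroblast level. Other alveolar type 2 genes were above it: Abca3, a lamellar-body lipid transporter, at 6.34 times, Lyz2 at 5.33 times, Napsa, a protease that processes surfactant proteins, at 3.2 times and Chil1 at 23.1 times. In the 56 members that were not mixed, Abca3 stood at 166 CPM, Napsa at 42.1 CPM and Lyz2 at 114 CPM, against 26.4, 12.6 and 172 CPM in fibroblasts. For every 100 Sftpc UMIs there were 1095 Sftpa1 UMIs in the 62 members, against 9.73 in alveolar type 2 cells, 7.87 in ciliated cells and 10.1 in fibroblasts. Likewise there were 311 Sftpb UMIs per 100 Sftpc UMIs in the 62 members, against 5.17, 7.89 and 6.75 in the same sets. With each cell thinned to 2000 UMIs, 90.0% of members and 9.9% of fibroblasts had a Sftpa1 UMI, while 67.1% of members and 64.2% of fibroblasts had a Sftpc UMI.

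**Figure D4:**
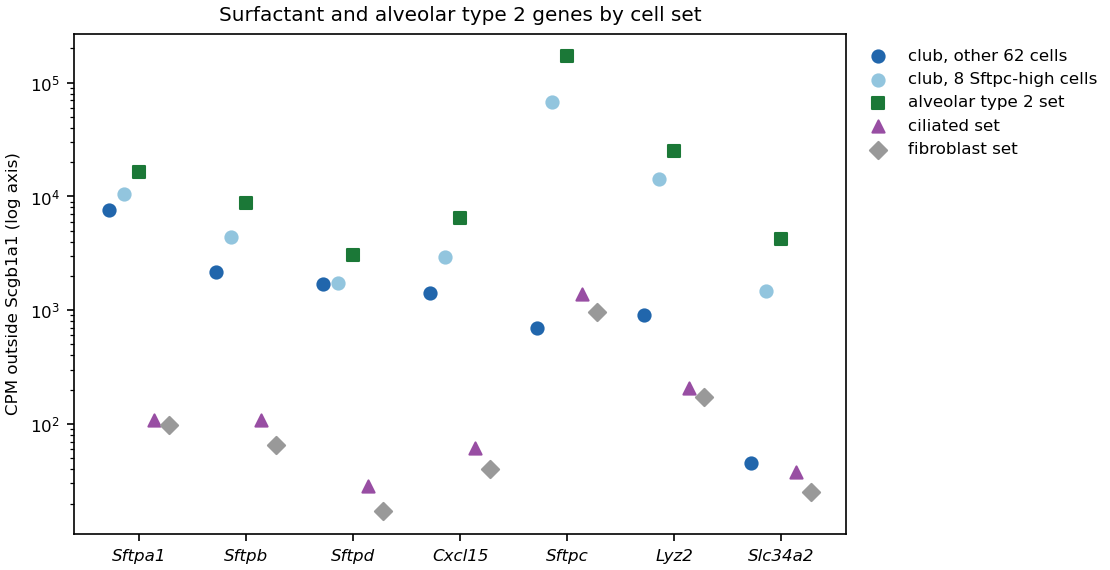
Levels of surfactant-related genes (CPM with Scgb1a1 left out, log axis) in the 62 members without high Sftpc, the 8 Sftpc-high members, and the alveolar type 2, ciliated and fibroblast sets. Sftpa1, Sftpb, Sftpd and Cxcl15 are at 1412 CPM or more in the 62 members, while summed Sftpc there is 693 CPM, against 965 CPM in fibroblasts.

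Against alveolar type 2 cells, the secretory cells of the alveolus, 933 of 12173 genes (7.66%) were higher in club cells and 2156 (17.7%) lower, and the median ratio was 0.886. On plain CPM 306 (2.51%) were higher and 7579 (62.3%) lower, and ratios up to 2.09 on the main scale fall under 1. The lowest list genes with 100 UMIs or more were Lyz1, Ciita, H2-Ab1, Etv5, Lamp3, Csf2, Aqp1 and Hc. The highest list genes were Scgb3a1, Bpifa1, Reg3g, Tff2, Ltf, Sult1d1, Scgb3a2, Agr2, Gabrp, Cyp2a5, Muc5b and Itln1, which were also the highest of all genes under the same rule. Scgb3a2 was 8906-fold higher (7504 to 10654) and Muc5b 3986-fold higher (1703 to 12300). Of 15 mucin and goblet genes 12 were higher and none lower in club cells, with 10 and 2 on plain CPM.

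Most measured xenobiotic enzymes were higher than in alveolar type 2 cells. Of 20 P450 and phase I genes 14 were higher and 1 lower, with a median ratio of 4.75, and on plain CPM 10 and 3. Por, the reductase that supplies P450s with electrons, had 1086 CPM in club cells and 164 CPM in alveolar type 2 cells (ratio 6.62, 6.20 to 7.07). Cyp4b1, which oxidises fatty acids and inhaled furans, had 488 CPM in club cells and 18.3 CPM in alveolar type 2 cells. Of 32 conjugation and redox genes 21 were higher and 2 lower, with a median ratio of 4.56, and on plain CPM 16 and 6. Mgst1, a membrane glutathione transferase, had 3566 CPM in club cells and 443 CPM in alveolar type 2 cells (8.05, 7.76 to 8.35). Gsta3, a cytosolic glutathione transferase, had 658 CPM in club cells and 30.3 CPM in alveolar type 2 cells. Selenbp1, a selenium-binding protein whose reads may be shared with Selenbp2, had 2694 CPM in club cells and 447 CPM in alveolar type 2 cells. Aldh1a1, a retinaldehyde dehydrogenase with the close copy Aldh1a7, had 1859 CPM in club cells and 43.4 CPM in alveolar type 2 cells (42.8, 39.6 to 46.3). Cbr2 had 13457 CPM in club cells (3780.5 to 31250 over the members) and 2624 CPM in alveolar type 2 cells (5.13, 5.04 to 5.22), and the cell ranges overlapped.

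Some genes of the conducting airways were far higher in club cells. Sox2, the transcription factor of conducting airways, had 73.9 CPM in club cells, where 44 of 70 cells had a UMI, and 0.327 CPM in alveolar type 2 cells. Cldn10, a tight-junction claudin, had 570.0 CPM in club cells and 2.34 CPM in alveolar type 2 cells (244-fold, 183 to 332). Krt19, a keratin of ducts and airways, had 1099 CPM in club cells and 66.5 CPM in alveolar type 2 cells. Gabrp, a subunit of a chloride-conducting GABA receptor, was found in 65 of 70 members and in 1 of 1972 alveolar type 2 cells. Of 27 airway transcription factors 4 were higher and 10 lower in club cells, and on plain CPM 3 and 20. Etv5, a target of FGF signalling, had 19.1 CPM in club cells and 417 CPM in alveolar type 2 cells. Nkx2-1, a transcription factor of all lung epithelium, had 113 CPM in club cells and 282 CPM in alveolar type 2 cells (ratio 0.401). On the main scale Hes1 was 2.90-fold and Notch2 2.08-fold higher, and 5 of 14 Notch pathway genes were higher and 3 lower, but 2 and 8 on plain CPM.

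Alveolar genes were the lower ones. Of 17 surfactant and lamellar-body genes 0 were higher and 15 lower, with a median ratio of 0.130. Sftpa1 had 8107 CPM in club cells and 16544 CPM in alveolar type 2 cells. Sftpd had 1694 CPM in club cells and 3079 CPM in alveolar type 2 cells, and for both genes the ciliated and fibroblast sets had no more than 108 CPM. Antigen-presentation genes were lower in 7 of 15 and higher in 1. Cd74, the class II invariant chain, had 350 CPM in club cells and 4021 CPM in alveolar type 2 cells (ratio 0.0870), and 0.0199 times the alveolar level in the 56 members that were not mixed. Lyz1, a lysozyme whose reads may be shared with Lyz2, had 48.7 CPM in club cells and 2689 CPM in alveolar type 2 cells. The defence genes split, with 11 of 25 higher and 6 lower on the main scale, and 10 and 10 on plain CPM. Wfdc2 had 16395 CPM in club cells and 2922 CPM in alveolar type 2 cells. Hp had 9084 CPM in club cells and 564 CPM in alveolar type 2 cells (16.1, 15.7 to 16.5). Lcn2, which binds bacterial siderophores, had 69.6 CPM in club cells and 822 CPM in alveolar type 2 cells. Chil1, a chitinase-like protein, had 370 CPM in club cells and 1301 CPM in alveolar type 2 cells.

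Against ciliated cells, the other airway type of this dataset, 666 of 9993 genes (6.66%) were higher in club cells and 3352 (33.5%) lower, and the median ratio was 0.671. On plain CPM these were 234 (2.34%) and 7664 (76.7%), and ratios up to 2.08 fall under 1. The lowest genes were cilia genes, with Foxj1 at 0.870 CPM in club cells and 540.2 CPM in ciliated cells, and Mlf1, Spag17, Tekt1 and Hydin among the 8 lowest. Among the highest list genes were Bpifb1, Muc5b, Tff2, Bpifa1, Ltf, Retnla, Itln1, Scgb3a2, Gabrp, Scgb3a1 and Reg3g. Of 14 mucin and goblet genes 10 were higher and 1 lower, the lower one being Agr3, which had no UMI in members and 208 CPM in ciliated cells. Of 23 defence genes 15 were higher and 4 lower, or 11 and 7 on plain CPM. Wfdc2 was 5.07-fold (4.95 to 5.19) and Hp 13.7-fold higher (13.1 to 14.4).

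Detoxifying enzymes were less one-sided against ciliated cells. Of 16 P450 and phase I genes 7 were higher and 3 lower, and of 32 conjugation and redox genes 15 were higher and 3 lower, but 5 and 5, and 8 and 10, on plain CPM, so the direction of both lists depends on the scale. Aldh1a1 had 1859 CPM in club cells and 1512 CPM in ciliated cells (1.23). Ces1d, a carboxylesterase with near copies in the Ces1 cluster, had 1131 CPM in club cells and 1109 CPM in ciliated cells (1.02). Prdx6 had 2815 CPM in club cells and 1777 CPM in ciliated cells (1.58). Cyp2f2, used in the choice of the members and of the alveolar type 2 set, had 8863 CPM in club cells, 58.0 CPM in alveolar type 2 cells and 1514 CPM in ciliated cells. Cyp2s1 ran the other way, with 15 UMIs over the club cells and 796 CPM in ciliated cells (0.0164).

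Surfactant genes were higher than in ciliated cells in 14 of 16 and lower in none, but without the 14 mixed members in 5 of 15 and lower in 2. The 5 were Sftpa1 (64.9-fold), Sftpd (64.0-fold), Sftpb (22.5-fold), Cd36, a fatty acid transporter (12.5-fold), and Napsa (2.07-fold), and the first 4 lay well above the level that becomes 1 on plain CPM. Elf5 and Ehf, epithelial ETS factors, were 69.7-fold and 6.78-fold higher in club cells, while Sox2 had 73.9 CPM in club cells and 137 CPM in ciliated cells. Jag1, a Notch ligand, had 21.7 CPM in club cells and 187 CPM in ciliated cells (0.116), while the Notch target Nrarp had 42.6 CPM in club cells and 1.51 CPM in ciliated cells. Scnn1b, a subunit of the epithelial sodium channel, had 164 CPM in club cells and 3.63 CPM in ciliated cells (45.0-fold). Aqp5, a water channel, had 597 CPM in club cells and 28.1 CPM in ciliated cells (21.2-fold). Of 18 ion and fluid transport genes 12 were higher and 5 lower, and 9 and 6 on plain CPM.

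**Figure D5:**
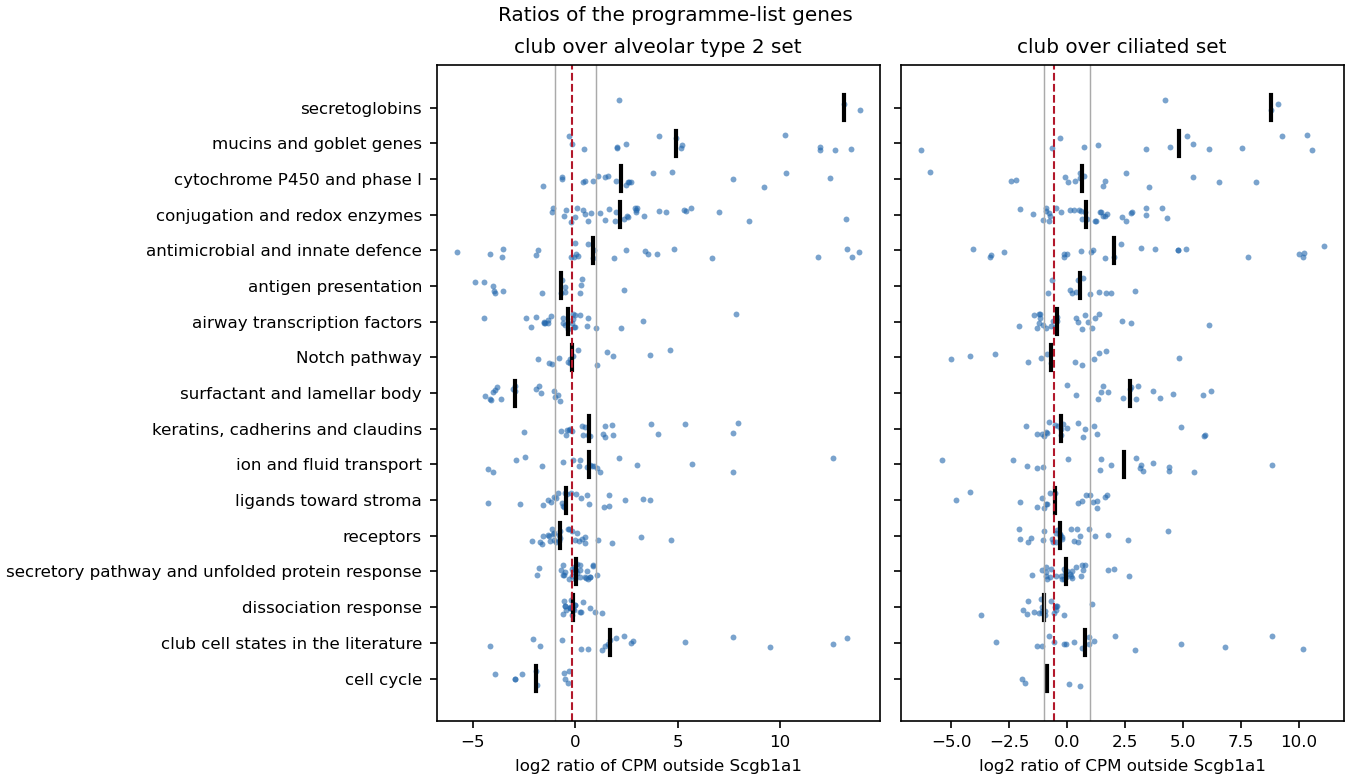
Ratios of CPM outside Scgb1a1, as log2, for the measured genes of each list in club cells over alveolar type 2 cells (left) and over ciliated cells (right), with 1 point per gene, a black bar at the list's median, a dashed line at the median of all genes and grey lines at ratios of 0.5 and 2. The mucin and goblet list has medians of 29.8 and 28.9, and the surfactant list 0.130 and 6.64.

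Of 20 genes known to respond to tissue dissociation, 1 was higher and none lower in club cells than in alveolar type 2 cells, while 1 was higher and 10 were lower than in ciliated cells, where 33.5% of all genes were lower. On plain CPM these were 0 and 14, and 0 and 19. Of 10 cell-cycle genes measured against alveolar type 2 cells 0 were higher and 6 lower in club cells, and on plain CPM 0 and 10. Of 4 measured against ciliated cells 0 were higher and 2 lower on both scales. Of 29 genes of the secretory pathway and unfolded protein response, 1 was higher and 2 lower than in alveolar type 2 cells, and on plain CPM 0 and 15. Over all genes 7.66% were higher and 17.7% lower than in alveolar type 2 cells, and on plain CPM 2.51% and 62.3%. Against ciliated cells the shares over all genes were 6.66% and 33.5%, and on plain CPM 2.34% and 76.7%.

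Single members stood apart. Upk3a, a uroplakin, had UMIs in 8 members, all of them Scgb3a1-low, and in 0 of 1972 alveolar type 2, 256 ciliated and 5627 fibroblast cells, which allows shares of cells with a UMI of up to 0.152%, 1.17% and 0.0533%. The cell with the most Upk3a, with 32.2% of its UMIs from Scgb1a1 and no Scgb3a1, held 90 Upk3a, 66 Resp18, 44 Calca and 72 Bpifb1 UMIs. Calca and Resp18 are neuroendocrine genes, and that cell had the highest summed level of the neuroendocrine list among members, 7622 CPM, while the list was at 0 in 68 members and Syp at 0 in all. The next 2 cells had 971 and 819 CPM of Upk3a and no Resp18 or Calca. Chia1, an acidic chitinase, was lower in the high members (ratio 0.06), and its top cell had 59 UMIs. Krt15, a keratin of basal and some secretory cells, had 36 UMIs in 1 Scgb3a1-high member with no Krt5 or Trp63.

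Of the reporter transcripts, Egfp had a lower summed level in club cells than in the comparison sets. TdTomato was not lower than in alveolar type 2 or ciliated cells. Egfp stood at 129 CPM in members, 80.2 CPM in the 56 that were not mixed, 205 CPM in alveolar type 2 cells, 186 CPM in ciliated cells and 1392 CPM in fibroblasts, and 39 of 70 members had a UMI. TdTomato stood at 36.5 CPM in members, 31.5 CPM in alveolar type 2 cells and 35.4 CPM in ciliated cells. Free RNA in the droplets was not told apart from RNA of the cells for these transcripts.

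In the authors' deposited table of 17 clusters, cluster 8 had the highest mean Scgb1a1 count (3184, log2 fold change 5.71), followed by cluster 12 (1549, 3.61) and cluster 5 (320.2, 1.37). In the authors' deposited table Bpifa1 had a mean of 57.6 in cluster 8 and 8.55 in cluster 12, while Scgb3a1 had 92.2 and 95.8. In the authors' deposited table Foxj1 was highest in cluster 13 (log2 fold change 8.13), where Cyp2f2 had a mean of 12.1. The table does not assign cells to clusters, so its means were not set against the 70 members.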

How the data were processed

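Single-cell transcripts of 4 pooled samples with identical labels were analysed as 1 sample. Reads had been counted by the authors with Cell Ranger 3.0.0 on mm10, per the submitters' processing notes. The deposited values are raw UMI counts for 31055 features in 11118 barcodes. A cluster table deposited by the authors lists, per the file headers, mean counts (treated as a score, since their scaling is not stated), log2 fold changes and adjusted p-values. How its clusters and tests were made is not given in the sources used here. Per-cell filters, sets and limits were applied to the deposited counts, which left 9391 barcodes, after 1296 had too few genes and 1545 too large a mitochondrial share (these overlap). Barcode sequences repeated 0 times and all had 1 suffix. Within 1 matrix this cannot show how the cells were spread over samples or libraries.

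Counts were summed per set and given as CPM with Scgb1a1 left out of totals, with exact Poisson 95% intervals for levels, exact conditional binomial intervals for ratios and Clopper-Pearson intervals for shares. A gene counted as higher at a ratio of 2 or more and as lower at 0.5 or less, with at least 30 UMIs over both sets. Scgb1a1, Cyp2f2, Tmem212, Ptprc and Sftpc were left out of these counts against alveolar type 2 and ciliated cells. In the Scgb3a1 split, Scgb3a1 was left out in place of Sftpc, which was counted. Where a set had 0 UMIs, 3 UMIs over that set served as the floor. Shares and counts of cells with a UMI were taken on all UMIs of each cell, and so were not matched for depth. Only where the text says so was each cell thinned to 2000 UMIs, leaving out shallower cells. Doublets were called with Scrublet in scanpy 1.11.5 (expected rate 0.08, 458 calls, 4.88%) and kept, with their removal as an alternative. The ratio computation was checked on simulated data.

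The members and gene lists were chosen with earlier results of these data known. Named genes were, per list, those with the most UMIs in the members and, per comparison, the 12 highest and 8 lowest ratios among list genes and among all genes with at least 100 UMIs, outside mitochondrial, ribosomal and predicted genes. For spread they were the 12 genes with the most UMIs and the 8 list genes with the largest excess over Poisson spread. The split by Scgb3a1, the 14 mixed members and the single members were chosen after the values were seen. Some named genes are not reported here. Of the list symbols, 1 was not matched, and 35 symbols are used by more than 1 feature. Coordinates are from GENCODE M21 on mm10. Tools were Python 3.11.15, numpy 2.4.6, scipy 1.17.1, pandas 2.3.3, anndata 0.12.19, scikit-image 0.26.0 and matplotlib 3.10.9.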

Additional observations from a re-analysis of the deposited data

How the results depend on the processing

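No paired analysis was possible because the cells are not mapped to samples, and replicates could not be left out for the same reason. For the genes named by the rule as highest or lowest in each comparison, 1072 values were recomputed under the alternatives, of which 1066 kept their direction and 6 turned. Turned means from 2 or more to under 1, or from 0.5 or less to over 1. Genes short of those folds were not counted here, and some crossed 1: in the Scgb3a1 split Cyp2f2 was 1.12 and Aldh1a1 1.06 on plain CPM, and Sftpa1 0.985 without mixed members, against 0.764, 0.719 and 1.17. With Scgb1a1 in the totals (plain CPM), club cells had 306 genes higher and 7579 lower than alveolar type 2 cells, and 234 and 7664 against ciliated cells. By its construction that setting multiplies every ratio by 0.479 or nearly so. Requiring 40% of UMIs from Scgb1a1 left 12 Scgb3a1-high members. Thinning to 2000 UMIs, which leaves fewer genes to count, gave 256 higher and 1521 lower against ciliated cells. It turned the ratios to alveolar type 2 cells of Csf2 and Aqp1 to 1.29 and 1.22, which are upper limits from the 3-UMI floor, since no UMI of either was left in the members. A minimum of 100 UMIs gave 559 higher genes against alveolar type 2 cells, and 331 higher and 2157 lower against ciliated cells. A minimum of 1 UMI gave 5991 higher genes against alveolar type 2 cells and 3564 against ciliated cells, since a gene with 1 UMI in the members has a large ratio. Fibroblast Sftpc, 965 CPM, was 944 CPM with at least 20 Col1a2 UMIs, 926 CPM with at most 5% mitochondrial UMIs and 762 CPM without called doublets. Alternatives for the Scgb3a1 split were added after the data were seen. Without the 14 mixed members 108 genes were higher in the Scgb3a1-high members, and Acta2 (0.0909), Tagln (0.924), Timp1 (1.09) and Eln (2.18) turned. With Scgb1a1, Scgb3a1, Scgb3a2 and Bpifa1 out of the totals, 302 were higher and 220 lower, and on plain CPM 486 and 138. Depth limits low genes most: 3 UMIs over all members are 2.61 CPM.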

Other observations

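Receptor and transport genes not yet described above also varied among the members. Among 18 measured receptors, 3 were higher and 1 lower in the Scgb3a1-high members, and 4 and 1 on plain CPM. Without the mixed members 3 of 11 were higher and 4 lower. Over all genes 4.29% were higher and 10.5% lower, or 11.7% and 3.32% on plain CPM. Il13ra1 is a receptor chain for the mucus-inducing cytokine IL-13. It had 180.4 CPM in the high members (21 of 22 cells) and 38.5 CPM in the low members (9 of 48). Lgr6, a receptor for R-spondins, had 77.8 CPM in high members (18 cells) and 3.21 CPM in low members (1 cell). Il13ra1 was 9.15-fold higher in all members than in alveolar type 2 cells and 1.93-fold than in ciliated cells. Among 14 measured ion and fluid transport genes, 3 were higher and 3 lower, and 5 and 1 on plain CPM, so their balance depends on the scale. Slc12a2, the sodium, potassium and chloride cotransporter of secreting epithelia, had 478 CPM in the high members and 194 CPM in the low members, with a ratio of 2.46 (1.98 to 3.09). These genes were named after their values were seen, and the ratios carry the same limits of scale and of mixed cells as those above.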
